A study of Mus musculus with 8 samples.

Results

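The 10 genes described here encode proteins of the neuronal microtubule, neurofilament and growth cone: Tubb3, Dcx, Mapt, Map2, Map1a, Map1b, Stmn2, Nefl, Nefm and Gap43. They were chosen by name, with no measured value in the rule, but with earlier results of these data known. Each matched 1 of the 54752 gene identifiers in the count tables. All 10 were among the 17865 genes that passed the filter on low counts and were tested. RNA was taken from brains of wild type C57BL/6 mouse fetuses (C57BL/6Slac in the study's methods) at stage E15.5 (in days after conception), and 8 brains were compared. The stress group held 4 brains of fetuses whose mother was exposed during pregnancy to chronic unpredictable mild stress (CUMS), a schedule of mild stressors that changed daily and ended the day before collection. The control group held 4 brains of fetuses whose mother was left in the home cage. Each group held 2 females (control F36 and F37, stress F34 and F35) and 2 males (control M30 and M31, stress M28 and M29), no agent or altered allele was used in either group, and by the litter numbers that the study lists, each group came from a single litter, so litter and maternal stress cannot be told apart. No source says that RNA of several animals was pooled.

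Microtubules are polymers of tubulin that stiffen the axon and carry its transport. Tubb3 is the neuron-specific β-tubulin isotype, and in newborn neurons doublecortin (Dcx) braces microtubules during migration. Tau (Mapt), Map2, Map1a and Map1b bind along the microtubule wall. Of these, tau is known for axons, Map2 for dendrites, Map1b for growing and Map1a for mature processes. Stathmin-2 (Stmn2) binds tubulin dimers in the growth cone, neurofilament light and medium chains (Nefl and Nefm) form the filaments that set axon calibre, and Gap43 is a membrane protein of the growth cone used as a mark of axon growth.

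Sequence was examined at the promoter of Map1a, the member with the largest change, and at that of its paralog Map1b, which was not called. Both are printed from the RefSeq table on GRCm38.p6 (the sequence of mm10), from 250 bases before to 50 bases after the annotated start site, 5′ to 3′ on the strand of the gene. Capitals mark the letters CCAAT and GGGCGG on either strand, where GGGCGG on the other strand reads as CCGCCC. The Map1a window lies at chr2:121289352-121289651 on the plus strand and the Map1b window at chr13:99516553-99516852 on the minus strand.
Map1a: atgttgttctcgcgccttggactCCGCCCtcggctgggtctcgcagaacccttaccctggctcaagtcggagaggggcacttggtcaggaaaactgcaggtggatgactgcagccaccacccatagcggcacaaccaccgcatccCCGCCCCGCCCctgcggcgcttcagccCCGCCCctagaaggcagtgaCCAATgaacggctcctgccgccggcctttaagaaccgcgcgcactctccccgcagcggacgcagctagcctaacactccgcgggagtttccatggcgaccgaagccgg
Map1b: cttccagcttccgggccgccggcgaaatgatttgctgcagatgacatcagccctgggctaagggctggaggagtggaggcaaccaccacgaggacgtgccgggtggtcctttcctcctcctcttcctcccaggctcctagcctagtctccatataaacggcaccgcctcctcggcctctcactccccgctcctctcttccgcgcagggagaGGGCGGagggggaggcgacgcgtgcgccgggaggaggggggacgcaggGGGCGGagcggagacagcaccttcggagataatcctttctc

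Both windows had a GC content of 65.7%, above the median of 52.7% over all 32851 promoters in the table. The Map1a window held 4 copies of GGGCGG, all on the other strand and beginning at −227, −105, −100 and −78 relative to the start site (base 1), and the copies at −105 and −100 overlapped. It held CCAAT once, at −58, and the E-box letters CANNTG at −173 and −154, and it held no TATAAA. The Map1b window held GGGCGG at −39 and 10, CANNTG at −213 and TATAAA at −99, and it held no CCAAT. On either strand, CCAAT was found in 37.4% of all promoters, GGGCGG in 35.7%, CANNTG in 72.3% and TATAAA in 13.6%. These are matches of letters in a fixed window and do not show that a factor binds there. Of the 10 members, 5 had an entry in that table (Map2, Map1a, Tubb3, Map1b and Dcx), and Mapt, Stmn2, Nefl, Nefm and Gap43 had none.

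The libraries held between 25320109 counts (stress F35) and 29105710 counts (stress M29), and the members took between 1.10% and 1.17% of them. All 12 pan-neuronal markers passed the filter, with a summed level of at least 5512 CPM in each brain. In each brain every member had at least 3412 counts. Stress F34 and stress M28 stood apart in the posterior Hox genes. Hoxa5, a gene of the hindbrain and spinal cord, had 35 counts in stress F34 and 12 in stress M28, whereas the other 6 brains had between 354 and 1098. Hoxb5 had 30 and 19 counts in these brains and between 291 and 909 in the others. Stress M28 also had the highest counts of the ganglion genes Avil (164) and Prph (670), for which the other 7 brains had at most 75 and 361. The tissue label says brain, while the library list of the study names the tissue "half_whole_brain", and the part that these differences play in the results was not tested. Results are therefore given also without stress F34 and M28, a choice made after the Hox counts were seen.

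To ask whether maternal stress went with a different level of these genes, counts were compared with edgeR's quasi-likelihood test, with sex and group in the model and p-values adjusted by the Benjamini-Hochberg method over all 17865 genes. Genes with an adjusted p under 0.05 are written as called. Of the 10 members, 5 were lower in stressed brains (Map1a, Gap43, Mapt, Nefm and Stmn2), and over all genes tested 7.27% were called lower. None of the 10 was higher by edgeR, by an unadjusted p under 0.05 (0 members) or by DESeq2 (0 members), and over all genes 6.49% were called higher. Every stressed brain lay below every control brain for 4 members (Map1a, Gap43, Mapt and Nefm), against 8.22% of all genes, and above every control brain for none (0 members), against 8.2% of all genes. The median log2 fold change (Log2FC) of the members was −0.08, and that of all genes tested was 0.0015. As the members were chosen with earlier results of these data known, these counts describe them and are not a test of the set. Fewer neurons and less RNA per neuron cannot be told apart in RNA of bulk brain tissue. Levels are given as CPM, counts scaled by TMM to a common library total, and every Log2FC is stress vs. control.

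**Figure D1:**
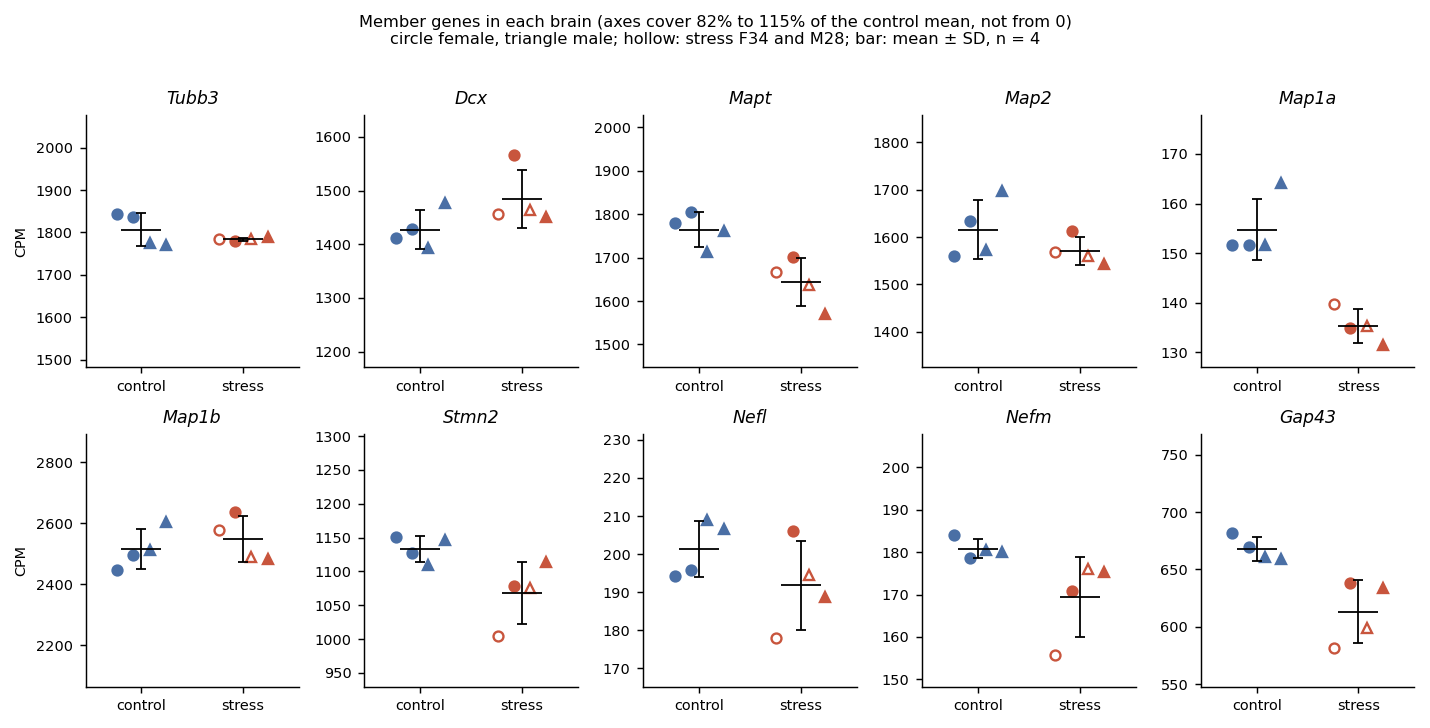
CPM of each member in each brain (y axis, which does not start at 0) for the control and stress groups (x axis), with the mean ± SD of 4 brains as bars and with stress F34 and M28 hollow. For Map1a, Mapt, Nefm and Gap43 every stressed brain lies below every control brain, and for the other 6 members the groups overlap.

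Map1a, which stabilises microtubules in maturing processes, fell furthest. In the controls its level was 152 CPM (F36), 152 (F37), 152 (M30) and 164 (M31). In the stress group it was 140 CPM (F34), 135 (F35), 135 (M28) and 132 (M29). All 4 stressed brains were below all 4 control brains, and control M31 was above the other 3 controls. The means were 155 ± 6.20 CPM (SD, n = 4) in controls and 135 ± 3.40 CPM (SD, n = 4) in stressed brains, a Log2FC of −0.19 (SE 0.031, edgeR adjusted p = 0.000153) or −12.6%. The call was also made without stress F34 and M28 (Log2FC −0.22, edgeR adjusted p = 0.000892) and in each of the 8 fits that left out 1 brain. The gene lies at chr2:121289600-121310832 (mm10), where 2.24% of its exon bases are shared with Ppip5k1.

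Map1b, the paralog of growing axons, had the highest CPM of the 10 and was not called. Its level was 2448, 2498, 2514 and 2606 CPM in control F36, F37, M30 and M31. In stress F34, F35, M28 and M29 it was 2580, 2639, 2489 and 2482 CPM. The ranges overlapped almost fully, and the Log2FC was 0.02 (SE 0.027, 95% interval −0.04 to 0.07, edgeR adjusted p = 0.743), with a sign that turned when control F36 or stress F35 was left out. The gene lies at chr13:99421446-99516540.

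Tau (Mapt), the microtubule-binding protein of axons, was lower. Its level was 1780, 1805, 1713 and 1760 CPM in control F36, F37, M30 and M31, and 1666, 1702, 1637 and 1570 CPM in stress F34, F35, M28 and M29. The groups did not overlap and stress F35 lay closest to the controls. The means were 1765 ± 39.3 CPM (SD, n = 4) and 1644 ± 55.7 CPM (SD, n = 4), with a Log2FC of −0.10 (SE 0.025, edgeR adjusted p = 0.00675). Without stress F34 and M28 the Log2FC was −0.11 (edgeR adjusted p = 0.0171), and tau was called in each of the 8 fits that left out 1 brain. The counts sum over all tau transcripts of chr11:104231390-104332090, so fetal and adult isoforms cannot be told apart.

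Map2, which binds microtubules in dendrites and cell bodies, was not called. It was measured at 1560, 1634, 1573 and 1697 CPM in control F36, F37, M30 and M31. It was at 1568, 1613, 1560 and 1543 CPM in stress F34, F35, M28 and M29. The highest value was that of control M31 and the lowest that of stress M29, with all others between. The Log2FC was −0.04 (SE 0.028, 95% interval −0.10 to 0.02, edgeR adjusted p = 0.383). The gene lies at chr1:66175273-66442583, its isoforms were summed, and 0.754% of its exon bases are shared with Gm10558.

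Tubb3, the neuron-specific β-tubulin, was not called and varied least from one stressed brain to another. The 4 stressed brains were at 1784 (F34), 1781 (F35), 1784 (M28) and 1788 CPM (M29). The controls were at 1845 (F36), 1837 (F37), 1776 (M30) and 1771 CPM (M31), with the females above and the males below every stressed brain. The coefficient of variation was 0.176% in stressed brains, the lowest of any member in either group, against 2.17% in controls. The spreads of the groups were not compared by a test, and so close a match of 4 values can arise by chance. The Log2FC was −0.02 (SE 0.024, 95% interval −0.07 to 0.03, edgeR adjusted p = 0.694). The gene lies at chr8:123411424-123422015, and reads of tubulin paralogs can be alike.

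Dcx, the microtubule protein of migrating neurons, had the highest Log2FC of the 10 but was not called. Its level was 1411, 1429, 1393 and 1477 CPM in control F36, F37, M30 and M31, and 1457, 1566, 1463 and 1451 CPM in stress F34, F35, M28 and M29. Stress F35 was above all other brains, and control M31 lay within the stress range. The Log2FC was 0.06 (SE 0.028, 95% interval −0.002 to 0.11, edgeR adjusted p = 0.205), and without stress F34 and M28 it was 0.08 (95% interval 0.01 to 0.14, edgeR adjusted p = 0.147). The gene lies on the X chromosome at chrX:143855842-143933311.

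**Figure D2:**
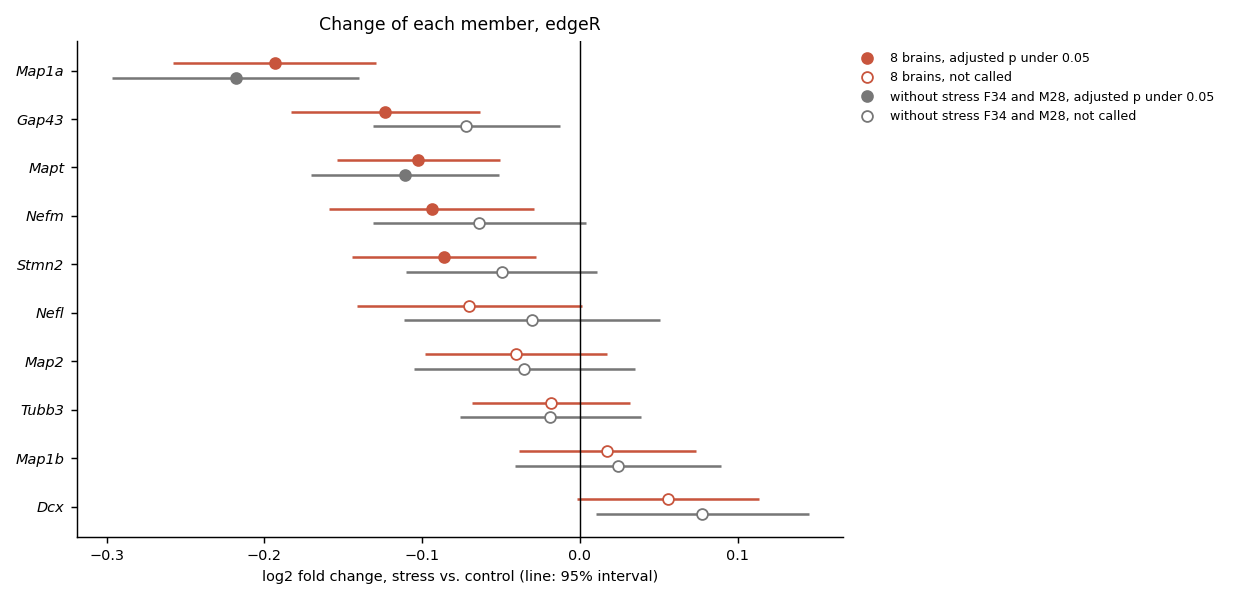
Log2FC of each member (x axis, with 95% intervals as lines) over all 8 brains in red and without stress F34 and M28 in grey, where filled points had an adjusted p under 0.05. Map1a and Mapt are filled in both fits, whereas Gap43, Nefm and Stmn2 are filled only with all 8 brains.

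Stmn2, the stathmin of growth cones, was lower by a small margin. In control F36, F37, M30 and M31 it was at 1151, 1127, 1109 and 1146 CPM. In stress F34, F35, M28 and M29 it was at 1004, 1079, 1075 and 1113 CPM. Stress F34 was the lowest brain, and stress M29 lay above control M30, so the groups overlapped. The means were 1133 ± 19.2 CPM (SD, n = 4) and 1068 ± 45.7 CPM (SD, n = 4), with a Log2FC of −0.09 (SE 0.028, edgeR adjusted p = 0.0421). The call was lost without stress F34 (Log2FC −0.06, edgeR adjusted p = 0.177), and likewise without control F36, F37 or M31 or stress M28 (edgeR adjusted p = 0.138, 0.117, 0.0724 and 0.0968). It was also lost without a sex term (0.107) and without stress F34 and M28 together (Log2FC −0.05, edgeR adjusted p = 0.331). The gene lies at chr3:8509360-8561606.

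Nefm, the medium neurofilament chain, was called near the threshold. The controls were within 179 to 184 CPM, at 184 (F36), 179 (F37), 180 (M30) and 180 (M31). The stressed brains were at 156 (F34), 171 (F35), 176 (M28) and 175 CPM (M29). All 4 were below all controls, and stress F34 was furthest below. The means were 181 ± 2.25 CPM (SD, n = 4) and 169 ± 9.45 CPM (SD, n = 4), with a Log2FC of −0.09 (SE 0.032, edgeR adjusted p = 0.0468). The call was lost by DESeq2 (0.0643), without a sex term (0.0585) and in 6 of the 8 fits that left out 1 brain (without control F36, F37 or M30 or stress F34, M28 or M29, edgeR adjusted p = 0.16, 0.122, 0.0612, 0.227, 0.0524 and 0.0584). Without stress F34 and M28 the Log2FC was −0.06 (edgeR adjusted p = 0.249).

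Nefl, the light chain on which the filament is built, was not called. It was at 194, 196, 209 and 207 CPM in control F36, F37, M30 and M31. It was at 178, 206, 195 and 189 CPM in stress F34, F35, M28 and M29. Stress F35 lay just below the control males and stress F34 below every other brain. The Log2FC was −0.07 (SE 0.035, 95% interval −0.14 to 0.001, edgeR adjusted p = 0.195), and without stress F35 it was −0.12 (edgeR adjusted p = 0.00369). Both neurofilament genes lie on chromosome 14 and overlap on opposite strands (Nefm chr14:68082590-68124846, minus; Nefl chr14:68083863-68089095, plus), sharing 32.8% of the exon bases of Nefl and 19.2% of those of Nefm. The printed counting command has no option for strand or for overlapping genes. By the default of the program, a read that overlaps exons of both genes is then counted for neither.

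Gap43, the growth cone protein, was lower in every stressed brain. The controls were at 682 (F36), 670 (F37), 661 (M30) and 659 CPM (M31). The stressed brains were at 582 (F34), 638 (F35), 599 (M28) and 634 CPM (M29). The groups did not overlap, and the lowest values were those of stress F34 and M28. The means were 668 ± 10.5 CPM (SD, n = 4) and 613 ± 27.2 CPM (SD, n = 4), with a Log2FC of −0.12 (SE 0.029, edgeR adjusted p = 0.00524). The call was made in each of the 8 fits that left out 1 brain, but not without stress F34 and M28 together (Log2FC −0.07, edgeR adjusted p = 0.123). The gene lies at chr16:42248442-42340651.

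Of the 5 members called lower, Map1a and Mapt were therefore also called without stress F34 and M28, and Gap43, Nefm and Stmn2 were not. With the summed CPM of the hindbrain list as a further term in the model, 3 members were called, namely Map1a (Log2FC −0.20, edgeR adjusted p = 0.000282), Mapt (Log2FC −0.10, edgeR adjusted p = 0.013) and Gap43 (Log2FC −0.10, edgeR adjusted p = 0.0244). In that fit Stmn2 had a Log2FC of −0.07 (edgeR adjusted p = 0.144) and Nefm of −0.07 (edgeR adjusted p = 0.157).

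Because the members differ in length, their levels were compared as CPM per kilobase of exon. Tubb3 was the highest, at 967 ± 21.0 CPM per kb (SD, n = 4) in controls and 955 ± 1.68 in stressed brains. Next came Gap43 at 439 ± 6.91 CPM per kb (SD, n = 4), Mapt at 234 ± 5.22 and Stmn2 at 202 ± 3.44 in controls. Map1b (159 ± 4.15 CPM per kb, SD, n = 4), Dcx (113 ± 2.87) and Map2 (98.2 ± 3.82) followed. The neurofilament chains stood lower, at 59.6 ± 2.19 CPM per kb (SD, n = 4) for Nefl and 31.3 ± 0.389 for Nefm, and Map1a was the lowest at 12.7 ± 0.510. The order of the 10 was the same in stressed brains, and in both groups the 4 values of each gene lay above all 4 values of the next gene in the order. In proportion to their level, the nearest neighbours were Mapt and Stmn2 in stressed brains, at no less than 209 and no more than 199 CPM per kb. These levels divide by all annotated exon bases of a gene, including 3′ ends that neurons may not use. For Nefl and Nefm they also include the stretch that the genes share, so the levels of both may be understated.

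**Figure D3:**
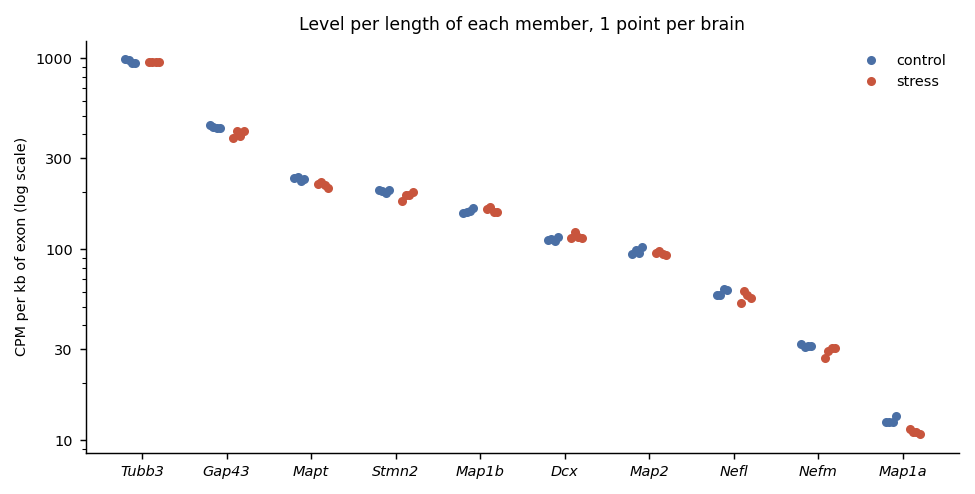
CPM per kilobase of exon (y axis, log scale) of each member (x axis) in each of the 8 brains. Tubb3 lies near 967 CPM per kb in controls and Map1a near 12.7, and the order of the 10 genes is the same in both groups.

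Ratios between pairs of members do not depend on the scaling of a library, and 5 were compared by an exact permutation test over the 8 brains (two-sided; the smallest p it allows is 0.0286). The Map1a to Map1b ratio sets the MAP1 form of mature processes against that of growing ones. Map1a had 6.19%, 6.07%, 6.03% and 6.30% of the counts of Map1b in control F36, F37, M30 and M31, and 5.42%, 5.11%, 5.43% and 5.30% in stress F34, F35, M28 and M29. The groups did not overlap, with a log2 difference of −0.21 (exact permutation p = 0.0286, adjusted over the 5 ratios 0.0715) and of −0.24 without stress F34 and M28. The Mapt to Dcx ratio, of an axonal protein to a protein of migrating neurons, was 126%, 126%, 123% and 119% of counts in control F36, F37, M30 and M31. It was 114%, 109%, 112% and 108% in stress F34, F35, M28 and M29. All stressed brains were again below all controls, with a log2 difference of −0.16 (exact permutation p = 0.0286, adjusted over the 5 ratios 0.0715) and of −0.19 without stress F34 and M28. Since Map1a and Mapt were themselves called, these ratios are not independent of those calls, and neither passed after adjustment.

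**Figure D4:**
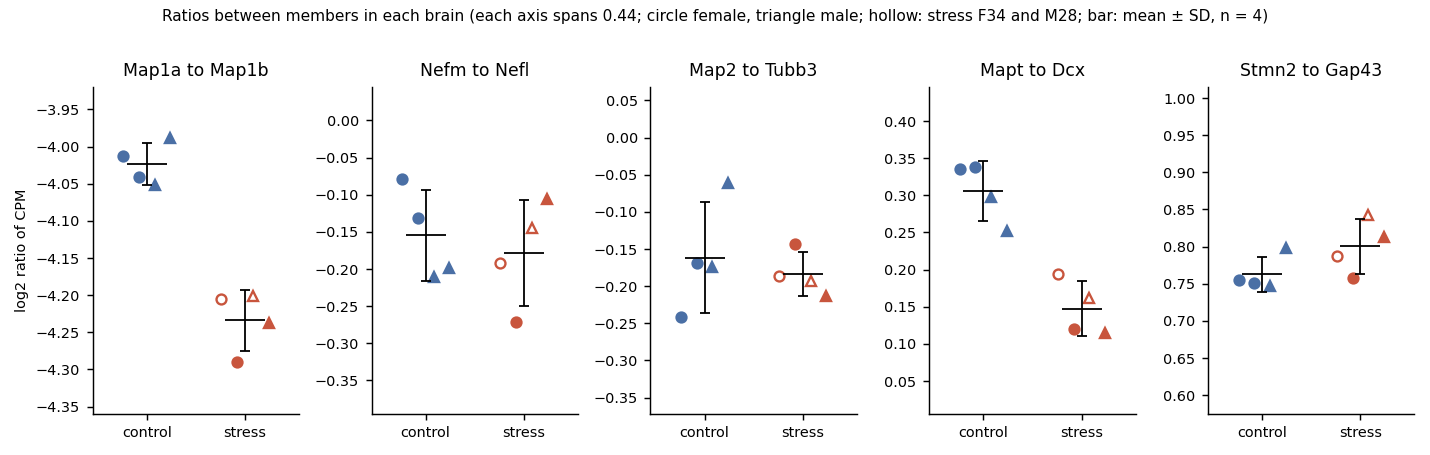
Log2 ratio of CPM for each of the 5 pairs (y axis, each panel spanning the same range) in control and stressed brains, with the mean ± SD of 4 brains as bars. The Map1a to Map1b and Mapt to Dcx panels show groups that do not overlap, with log2 differences of −0.21 and −0.16, and the groups overlap in the other 3 panels.

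The other 3 ratios overlapped between the groups. Nefm to Nefl had a log2 ratio of −0.15 ± 0.061 (SD, n = 4) in controls and −0.18 ± 0.071 in stressed brains (exact permutation p = 0.629, adjusted 0.686). Map2 to Tubb3 had −0.16 ± 0.075 (SD, n = 4) and −0.18 ± 0.030 (exact permutation p = 0.686, adjusted 0.686). Stmn2 to Gap43, both of the growth cone, had 0.76 ± 0.023 (SD, n = 4) and 0.80 ± 0.037 (exact permutation p = 0.143, adjusted 0.238).

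The sexes were compared by fitting females and males alone, 2 brains against 2, and by a sex by stress interaction over all 8. Among females Gap43 (Log2FC −0.15, edgeR adjusted p = 0.0316) and Nefm (Log2FC −0.15, edgeR adjusted p = 0.046) were called. Among males Map1a (Log2FC −0.24, edgeR adjusted p = 0.000171), Mapt (Log2FC −0.12, edgeR adjusted p = 0.0334) and Nefl (Log2FC −0.12, edgeR adjusted p = 0.0401) were called. Map1a had a Log2FC of −0.14 in females (edgeR adjusted p = 0.0501) and Gap43 of −0.10 in males (edgeR adjusted p = 0.0756). Map1b had a Log2FC of 0.08 in females and −0.04 in males. No member was called for the interaction by edgeR (lowest adjusted p = 0.662; 1 member, Map1b, had an unadjusted p under 0.05; the interaction was not fitted with DESeq2). A difference between the sexes was therefore not shown for any member.

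Other genes of the neuronal cytoskeleton were taken from 9 lists with 138 genes, of which 136 were tested. By edgeR 27 of them were lower and 8 higher in stressed brains, with a median Log2FC of −0.02 against 0.0015 over all genes. Over all genes tested 7.27% were called lower and 6.49% higher, which is the background for each list below. The 8 higher genes are near that share. So is the 1 called gene in the lists of tubulins, of kinases acting on tau and of tubulin-modifying enzymes. Tuba8 and Sprr1a had too few counts to be tested. These lists were compiled with earlier results of these data known and are described by counts only.

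Microtubule-associated proteins other than the members were lower in 9 of 26 genes and higher in 0 by edgeR (1 was higher at an unadjusted p under 0.05, and 0 by DESeq2), with a median Log2FC of −0.06. Those with the smallest p were Tppp3, a tubulin polymerisation-promoting protein (Log2FC −0.27, SE 0.054, adjusted p = 0.00118), Map1lc3a, a light chain that binds MAP1 proteins and serves in autophagy (Log2FC −0.16, SE 0.034, adjusted p = 0.00168), Map7d2 (Log2FC −0.19, SE 0.044, adjusted p = 0.00428) and the microtubule stabiliser Map6 (Log2FC −0.10, SE 0.025, adjusted p = 0.00707). These 4 were called in each of the 8 fits that left out 1 brain, and Map7d2 was not called without stress F34 and M28 (adjusted p = 0.148). The list held 5 lower genes without control F37 or without stress M29, and 6 without stress F34 and M28.

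Of the 14 other tubulins tested, Tubb2a, an abundant β-tubulin of neurons, was lower (734 ± 17.6 CPM in controls and 670 ± 5.51 in stressed brains, SD, n = 4, Log2FC −0.13, edgeR adjusted p = 0.000625). The other 13 were not called, 0 were higher by edgeR or DESeq2 (1 at an unadjusted p under 0.05), and the median Log2FC of the list was 0.005. Tubb2a was called in each of the 8 fits that left out 1 brain and without stress F34 and M28 (adjusted p = 0.00581). Of the 3 other stathmins, Stmn4 (Log2FC −0.17, SE 0.027, adjusted p = 0.000136) and Stmn3 (Log2FC −0.10, SE 0.028, adjusted p = 0.0207) were lower. Stmn4 was also lower without stress F34 and M28 (adjusted p = 0.00247), while Stmn3 was not called there (adjusted p = 0.0544), nor without control F36 or stress F34 or F35 alone (adjusted p at most 0.113).

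Intermediate filaments other than Nefl and Nefm moved in both directions, with 3 lower and 4 higher of 9 and a median Log2FC of 0.12. The heavy neurofilament chain Nefh was lower (Log2FC −0.24, SE 0.076, adjusted p = 0.0361), although the call was lost without control F36, M30 or M31 or stress F34, M28 or M29 (adjusted p at most 0.165) and without stress F34 and M28 together (adjusted p = 0.227). Lmna, a nuclear lamin, was lower (Log2FC −0.21, adjusted p = 0.0134), lost without stress F34 or M29 (adjusted p at most 0.0583). Gfap, the filament of astrocytes, was lower from at most 40 counts a brain (Log2FC −0.76, adjusted p = 0.0231), and the call was lost without control F37, M30 or M31 or stress F35, M28 or M29 (adjusted p at most 0.103). The higher genes were the nuclear lamin Lmnb1 (Log2FC 0.13, adjusted p = 0.00176), the progenitor filaments Vim (Log2FC 0.12, adjusted p = 0.00643) and Nes (Log2FC 0.14, adjusted p = 0.0185), and α-internexin (Ina), a neuronal filament that assembles with the neurofilament chains (Log2FC 0.09, adjusted p = 0.0232). Nes was lost without control F37 or stress F34 or M29 (adjusted p at most 0.136) and without stress F34 and M28 together (adjusted p = 0.275), and Ina without control F37 or M31 or stress M28 or M29 (adjusted p at most 0.0972).

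Growth cone and axon growth proteins were lower in 4 and higher in 2 of 23 genes tested, with a median Log2FC of −0.02. Ablim1, which links actin (Log2FC −0.21, SE 0.033, adjusted p = 0.00012), shootin-1 (Shtn1; Log2FC −0.12, SE 0.029, adjusted p = 0.00618), the adhesion molecule L1cam (Log2FC −0.09, SE 0.026, adjusted p = 0.0173) and Basp1, a membrane protein related in function to Gap43 (Log2FC −0.08, SE 0.025, adjusted p = 0.0467), were lower. Marcks (Log2FC 0.10, adjusted p = 0.00598) and the axonal adhesion molecule Cntn2 (Log2FC 0.11, adjusted p = 0.0127) were higher. L1cam was lost without control F37 or M31 or stress M29 (adjusted p at most 0.0884), Basp1 without control F36, F37 or M30 or stress F34 or M29 (adjusted p at most 0.162), and Cntn2 was lost without stress F34 (adjusted p = 0.0793), while 2 genes of the list were lower without control F37 or without stress M29.

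Among spectrins, ankyrins and adducins, which form the membrane skeleton of the axon, 4 of 9 were lower and 0 higher by edgeR (0 at an unadjusted p under 0.05 and 0 by DESeq2), with a median Log2FC of −0.09. They were Sptbn4 (Log2FC −0.23, adjusted p = 0.000726), Ank2 (Log2FC −0.12, adjusted p = 0.00265), Sptbn1 (Log2FC −0.11, adjusted p = 0.00787) and Sptan1 (Log2FC −0.09, adjusted p = 0.0165). The same 4 were called without stress F34 and M28 (adjusted p at most 0.0333), and Sptan1 was lost without control F37 or M31 (adjusted p at most 0.0866).

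Of 19 genes listed as axonal transport motors and related proteins 3 were lower and 1 higher, with a median Log2FC of −0.03. The dynein intermediate chain Dync1i1 was lower (55.5 ± 3.04 CPM in controls and 44.3 ± 2.71 in stressed brains, SD, n = 4, Log2FC −0.33, edgeR adjusted p = 3.03e-05), as were the kinesins Kif26b (Log2FC −0.14, adjusted p = 0.00851) and Kif1a (Log2FC −0.09, adjusted p = 0.0288), and the dynein regulator Nde1, also a protein of dividing progenitors, was higher (Log2FC 0.21, adjusted p = 0.00198). Kif26b was lost without stress M29 (adjusted p = 0.0609) and Kif1a without control F37 or M31 or stress F35, M28 or M29 (adjusted p at most 0.113). Of 15 kinases and regulators acting on tau and other microtubule-associated proteins, Cdk5r2, an activator of the tau kinase Cdk5, was lower (Log2FC −0.24, SE 0.031, adjusted p = 1.28e-05), and the other 14 were not called. Of 18 enzymes that modify or sever tubulin, the deglutamylase Agbl5 was higher (Log2FC 0.13, adjusted p = 0.00977), lost without stress M29 (adjusted p = 0.0511), and 0 were lower by edgeR or DESeq2 or at an unadjusted p under 0.05, although 1 was lower without stress F34.

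**Figure D5:**
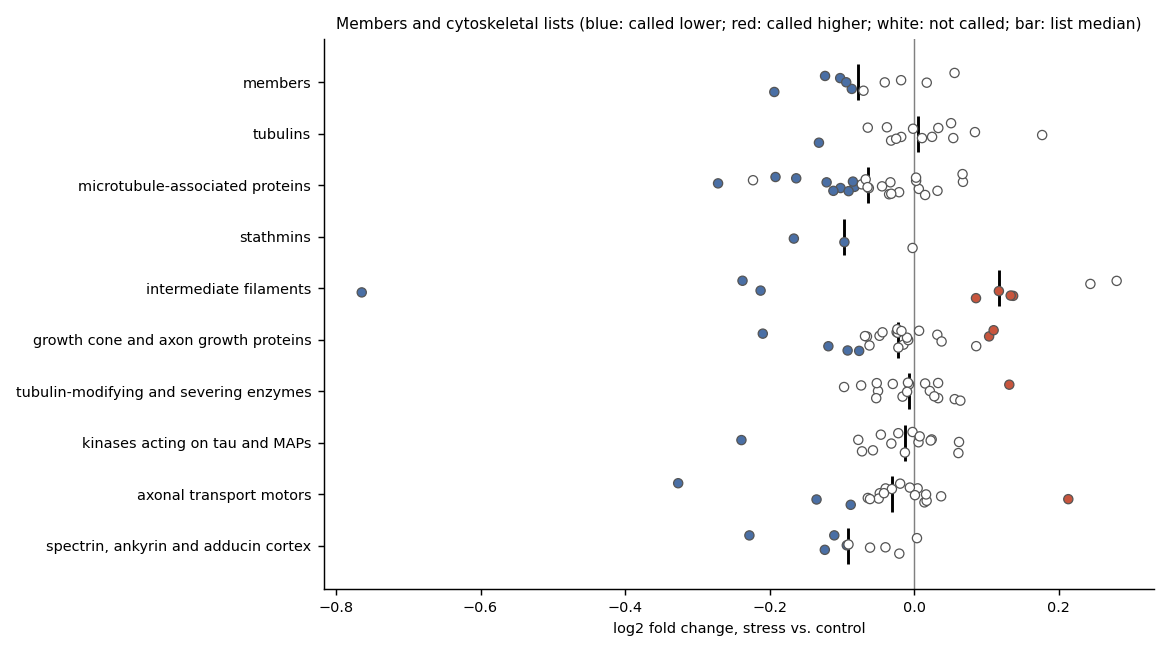
Log2FC (x axis) of the members and of the tested genes of the 9 cytoskeletal lists (y axis), with called genes in blue (lower) or red (higher) and the median of each list as a bar. Microtubule-associated proteins hold 9 lower and 0 higher genes, whereas intermediate filaments hold 3 lower and 4 higher.

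Markers of cell types also differed between the groups, and their part in the results for the members was not tested. The background for each count of markers is the 7.27% of all genes called lower and the 6.49% called higher. Of 12 pan-neuronal markers 4 were lower and 1 higher, with a median Log2FC of −0.03 and a summed level of 5667 to 5771 CPM in controls and 5512 to 5698 in stressed brains. Uchl1 (Log2FC −0.14, adjusted p = 0.00149), the nuclear neuron marker Rbfox3 (Log2FC −0.13, adjusted p = 0.0088) and the synaptic vesicle protein Syt1 (Log2FC −0.11, adjusted p = 0.0147) were lower. Syt1 was lost without control M31 or stress F34 or M29 (adjusted p at most 0.0799), and 2 genes of the list were lower without stress F34 or without stress M29. Of 10 newborn neuron markers 5 were higher and 0 lower by edgeR, by DESeq2 or at an unadjusted p under 0.05, with a summed level of 2744 to 2803 CPM in controls and 2948 to 3024 in stressed brains. The transcription factors Nhlh1 (Log2FC 0.39, adjusted p = 3.66e-05), Nhlh2 (Log2FC 0.21, adjusted p = 0.000691) and Sox11 (Log2FC 0.13, adjusted p = 0.00119) led them.

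Of 11 markers of radial glia and dividing cells 7 were higher, led by Top2a (Log2FC 0.24, adjusted p = 1.48e-05), Mki67 (Log2FC 0.21, adjusted p = 3.25e-05) and Pcna (Log2FC 0.14, adjusted p = 0.00279), with summed levels of 1945 to 2072 CPM in controls and 2026 to 2206 in stressed brains. Of 5 intermediate progenitor markers 4 were higher, led by Eomes (Log2FC 0.25, adjusted p = 8.4e-06), Neurog2 (Log2FC 0.24, adjusted p = 0.000169) and Btg2 (Log2FC 0.18, adjusted p = 0.00692), with summed levels of 328 to 355 CPM and 363 to 404. Neither list had a lower gene by edgeR, by DESeq2 or at an unadjusted p under 0.05. Without stress F34 and M28 these lists held 5 and 3 higher genes. Top2a, Mki67 and Pcna are genes of dividing cells. The other called genes of that list are radial glia genes and were higher too. Among them were Vim (Log2FC 0.12, adjusted p = 0.00643) and Nes (Log2FC 0.14, adjusted p = 0.0185). The 4 genes of that list that were not called are also radial glia genes, and each had a Log2FC below 0. The pan-neuronal sums of the groups overlapped, as did those of the radial glia list, whereas the newborn neuron and intermediate progenitor sums did not.

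Of the oligodendrocyte lineage markers 2 of 5 were lower (Pdgfra, Log2FC −0.31, adjusted p = 0.000187; Olig1, Log2FC −0.26, adjusted p = 0.000149; sums 117 to 129 CPM in controls and 104 to 109 in stressed brains), of the astrocyte markers 2 of 4 tested (Aqp4, Log2FC −0.61, adjusted p = 0.000294, and Gfap; sums 212 to 225 and 203 to 219 CPM) and of the endothelial and pericyte markers 3 of 6 (Flt1, Log2FC −0.41, adjusted p = 2.19e-05; Kdr, Log2FC −0.29, adjusted p = 8.35e-05; Cldn5, Log2FC −0.13, adjusted p = 0.0267, lost without control F36, F37 or M31 or stress F35 or M28 at adjusted p up to 0.0804; sums 213 to 238 and 204 to 214 CPM). Of 6 red blood cell markers Hbb-bs was lower (Log2FC −0.14, adjusted p = 0.00976), lost without control F37 or stress F34 (adjusted p at most 0.077), with sums of 359 to 406 and 361 to 376 CPM. No microglial marker of 6 was called by edgeR or DESeq2 (0 at an unadjusted p under 0.05; sums 30.5 to 34.2 and 29.1 to 33.3 CPM), and Csf1r, the most abundant, was at 10.3 ± 0.857 CPM (SD, n = 4) in controls and 10.8 ± 1.45 in stressed brains.

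Some markers of tissue next to the brain were called higher over all 8 brains. Of the 4 meningeal and mesenchymal markers tested, 3 collagens were higher (Col1a1, Log2FC 1.59, adjusted p = 0.00732; Col3a1, Log2FC 1.04, adjusted p = 0.00249; Col1a2, Log2FC 0.79, adjusted p = 0.0125), with sums of 12.4 to 25.7 CPM in controls and 17.0 to 60.0 in stressed brains. Of 7 peripheral sensory ganglion markers 2 were higher, among them Avil (Log2FC 0.66, adjusted p = 0.0339), with sums of 71.9 to 76.8 and 71.2 to 85.8 CPM. Of 4 choroid plexus markers tested Ttr was higher (Log2FC 1.91, adjusted p = 0.00717), with sums of 2.22 to 10.1 and 2.45 to 32.6 CPM. Without stress F34 and M28, and also by DESeq2 over all 8 brains, 0 genes of these 3 lists were called. Stress M28 carried the highest collagen and Avil counts and stress F34 the highest Ttr count (827), and the Col1a1 call was lost without stress M28 alone (adjusted p = 0.0932). Col3a1 was called in each of the 8 fits that left out 1 brain. Without stress F34 and M28, a fit with fewer stressed brains, its Log2FC was 0.50 (edgeR adjusted p = 0.0945) and that of Col1a1 was 0.51 (edgeR adjusted p = 0.448). The Ttr call was lost without control F37 or stress F34 (adjusted p at most 0.252), that of Avil without control M30 or M31 or stress F34 or M28 (at most 0.387) and that of Col1a2 without control M30 or M31 or stress M28 (at most 0.111). No motor neuron marker of 5 tested was called by edgeR or DESeq2 over all 8 brains (1 lower and 1 higher at an unadjusted p under 0.05). In the fits that left out 1 brain, at most 1 of them was called lower. Their sums were 62.7 to 65.7 CPM in controls and 62.1 to 67.0 in stressed brains, and Isl1 was at 41.6 ± 0.520 CPM (SD, n = 4) and 44.0 ± 0.880. No marker of any list was at 0 in all brains, although Kcnj13 of the choroid plexus list had at most 1 count.

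Among regional markers, 6 of 9 forebrain genes were higher and 1 was lower. The higher genes included Emx2 (Log2FC 0.22, adjusted p = 0.00164) and Emx1 (Log2FC 0.25, adjusted p = 0.00241). Over all genes tested 6.49% were called higher and 7.27% lower. Forebrain sums were 1194 to 1242 CPM in controls and 1242 to 1276 in stressed brains. Of 7 midbrain genes 3 were higher (Otx2, Log2FC 0.19, adjusted p = 0.00294; Tal1, Log2FC 0.16, adjusted p = 0.0206; Gata3, Log2FC 0.19, adjusted p = 0.0265), with sums of 131 to 147 and 146 to 156 CPM. Tal1 was lost without control F37 or M31 or stress F34 or M28 (adjusted p at most 0.114) and Gata3 without control F36, F37 or M31 or stress F34 or M29 (at most 0.133). No hindbrain gene of 10 was called by edgeR or DESeq2 (1 lower at an unadjusted p under 0.05), although 3 Hox genes were called lower without stress F35, the median Log2FC was −0.18, and the sums were 80.0 to 142 CPM in controls and 55.9 to 139 in stressed brains. Barhl1, the most abundant of them, was at 37.9 ± 2.19 CPM (SD, n = 4) and 38.8 ± 1.56. Without stress F34 and M28, 3 forebrain genes and 1 midbrain gene were higher (likewise without control F37 alone, and 1 midbrain gene without control M31 or stress F34).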

How the data were processed

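The authors cleaned paired reads of 1 poly(A) library per brain with Trim Galore, used TopHat2 2.1.1 for alignment to mm10, and made gene counts with featureCounts 1.6.3 over GENCODE exons. The deposited values are raw counts per gene, not normalized or filtered. The alignment allowed a capped number of places per read, and the counting command that the methods print sets paired reads, exons and the gene ID, with no option for strand, multi-mapped reads or overlapping genes. Gene lengths are the exon bases of the count tables.

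Genes were kept by filterByExpr (minimum count 10, by group), scaled by TMM (factors 0.996 to 1.002) and tested with edgeR 4.0.16 (glmQLFit and glmQLFTest, R 4.3.3) with sex and group, over 8 brains. SEs came from the Log2FC and F value. Log2 CPM had a prior count of 2. The step was tested on simulated data. Alternatives were DESeq2 1.42.0, median-of-ratios, upper-quartile or no scaling factors, no filter, no sex term and each brain left out. The fits without stress F34 and M28 and with the hindbrain level were added after the counts were seen. The brains of a group were separate litter mates, so p-values measure the spread within a litter. Members and lists (cytoskeletal, cell type and region genes) were chosen with earlier results of these data known. The text names every member, up to 4 called genes per direction of each cytoskeletal list by smallest p, and up to 3 called genes of each marker list or else its most abundant gene. Hoxa5, Hoxb5, Prph, Tuba8, Sprr1a and Kcnj13 fall outside this rule and were named after their values were seen. The study's other animals were not analysed here. Some genes of the marker and region lists are not reported here.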

Additional observations from a re-analysis of the deposited data

Results flagged for a closer look

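A brain lay far from the other 3 of its group in 3 of 30 sets of 4 values (each member and ratio in each group), by the gap to the nearest value over the range of the group, and chance gives about 1 in 20. Dcx was 1566 CPM in stress F35, against 1463 in the next highest stressed brain. Map1a was 164 CPM in control M31, against 152 in the next highest control, and Map1a was also called lower in stressed brains without control M31. The Stmn2 to Gap43 log2 ratio was 0.80 in control M31, against 0.75 in the next highest control. No member differed between the sexes in its response by the interaction test.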

How the results depend on the processing

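Scaling moved the median Log2FC of all genes by under 0.1, and no scaling changed a member's call. Map1a and Mapt were called in every fit run over both sexes, and Gap43 in every one but that without stress F34 and M28. The members called lower numbered 3 without a sex term, 2 without stress F34 and M28, 3 with the hindbrain level and 3 to 6 with each brain left out in turn, the 6 including Nefl without stress F35. Genes called higher over all numbered 1160, but 748 by DESeq2, 741 without stress F34 and M28 and 736 to 1057 with 1 brain left out, and genes called lower numbered 1298, and 854 to 1308 with 1 brain left out. The Map1b Log2FC ranged from −0.0027 to 0.040 with 1 brain left out. The Nefm to Nefl difference was −0.13 in females alone and 0.079 in males alone, and ranged from −0.048 to 0.0072 with 1 brain left out. The Map2 to Tubb3 difference was 0.041 in females alone and ranged from −0.049 to 0.012. The causes were not tested. With 1 brain left out, the exact test of a ratio cannot go below 0.0571, so it says nothing about stability there. No paired analysis was possible because the groups share no replicate number. Depth limits Gfap and Col1a1, which had as few as 14 and 24 counts in a brain.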
